A study of Mus musculus with 9 samples.

Results

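The genes described here are those whose symbols mark collagens, laminin chains, integrin subunits, ADAM and ADAMTS proteins, matrix metalloproteinases and their inhibitors, fibrillins, fibulins, fibronectin, SPARC and thrombospondin names, lysyl oxidases, S100 proteins and annexins, without Anxa2. Of the genes listed for these livers, 59 symbols matched, and 28 of them had a mean of at least 1 TPM over the 9 libraries, out of 5608 genes in all. TPM is a transcript level corrected for transcript length and for the library's total. The samples were livers of wild-type C57BL/6 J mice, with 3 mice in each group. FED mice ate standard diet freely, IF mice had food withheld for 24 h 2 times per week, and FMD mice received a fasting-mimicking diet of reduced calories for 3 days. The livers were taken the day after the last fast or the last diet day, and the age and sex of the mice are not given in the sources used here. The comparisons address how each form of food restriction changes liver transcription.

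The extracellular matrix of the liver is a thin scaffold in the space between hepatocytes and sinusoids and around the portal tracts, made largely by stellate cells and portal fibroblasts. Cells grip it through integrins, which are pairs of an alpha and a beta chain, and it is cut by secreted and membrane-bound metalloproteinases that TIMP proteins inhibit. S100 proteins and annexins are calcium-binding proteins that act mostly inside cells and at membranes, and several S100 proteins work as partners of annexins. In bulk liver RNA, fewer cells of a type and less RNA per cell cannot be told apart.

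By level, the list was one of calcium-binding proteins more than of matrix. The 7 S100 genes held 69.9% of the members' TPM over the 9 libraries and the 5 annexins held 21.8%, while the collagen, laminin and fibulin members together were near the limit of 1 TPM. Members by role were 1 of 4 matching collagens (Col1a1), 1 of 4 laminin chains (Lamb2), 1 of 9 fibronectin, fibrillin, fibulin, thrombospondin and lysyl oxidase symbols (Fbln5), 5 of 10 integrin symbols, 6 of 11 ADAM and ADAMTS symbols, 2 of 6 metalloproteinase and TIMP symbols (Mmp15 and Mmp19), 7 of 9 S100 symbols and 5 of 6 annexins. Among the integrin symbols, Itgb1bp1 and Itgb3bp encode proteins named for binding an integrin tail and are not integrin chains. Just inside the limit were Col1a1 with a mean of 1.001 TPM and Adamtsl4 with 1.01 TPM, and just outside were Itga8 with 0.793 TPM and Itga2b with 0.778 TPM. Over the 6 libraries of the other groups, Adamtsl4 and S100a4 had means under 1 TPM without FMD, and Col1a1 without FED. These 3 members passed the limit through the group where they were highest, so their values are a description with no test of that group.

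The members' summed TPM was 721 ± 31.5 in FED, 916 ± 79.8 in IF and 1385 ± 655 in FMD livers (SD, n = 3). In FMD the sum was 2098 TPM in replicate 1, 1248 TPM in replicate 2 and 809.7 TPM in replicate 4, so most of the FMD spread lay between these 3 livers. The table holds part of each library, with listed values that sum to 26.3% to 43.0% of all TPM, so the depth of the libraries is unknown. Expression of the listed genes as a whole was higher in both diets. The 4665 genes tested had a median log2 fold change of 0.24 in the IF and 0.48 in the FMD comparison with FED, and of 0.24 between the diets (FMD vs IF). Values are therefore also given scaled, meaning that a library's values were divided by its median ratio, over genes, to the geometric mean of all libraries. These divisors were 0.815 to 0.843 in FED, 0.962 to 1.03 in IF and 1.43, 1.14 and 1.09 in FMD replicates 1, 2 and 4.

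Genes were tested with limma on log2(TPM + 1) over all 9 libraries, and a call needed a p below 0.05 after Benjamini-Hochberg adjustment together with a log2 fold change beyond 0.585 in either direction. Fold changes are on the log2(TPM + 1) scale, which understates the change of low genes. In IF vs FED, 3 of 28 members were called: Itga5 and S100a13 were higher and Mmp15 was lower. Over all genes tested, 10.3% were called higher and 1.59% lower. In FMD vs FED, 7 members were called higher and 0 lower, which is 25.0% of the members beside 35.5% of all genes called higher and 1.59% called lower. They were S100a10, Anxa5, S100a13, Adamtsl4, Anxa3, Anxa6 and Adam23. Without Adamtsl4 and S100a4, which passed the TPM limit through FMD, 6 of 26 members (23.1%) were called higher. In FMD vs IF 0 members were called by limma, where 5.14% of all genes were called, and 10 members had an unadjusted p under 0.05, beside 35.3% of all genes. Both diets were compared with the same 3 FED livers. The fit takes 1 spread per gene from all 9 libraries, so an SE or p in IF vs FED also holds the spread among FMD livers.

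The median log2 fold change of the members was 0.16 for IF against FED, 0.42 for FMD against FED and 0.29 in FMD vs IF, and the values of single members ran from -0.71 to 0.75, from -0.56 to 1.42 and from -0.37 to 1.70. Only in FMD vs IF did the members' median lie above the median of all genes, by a small margin. After scaling the members' medians were -0.09, -0.02 and 0.05. Among scaled values 1 member, Mmp15, was called lower in IF vs FED and 0 higher, beside 3.45% of all genes lower and 3.69% higher. In FMD vs FED 2 members, Mmp15 and Mmp19, were called lower and 0 higher, beside 5.64% and 5.49% of all genes. In FMD vs IF 0 members were called by limma after scaling, beside 2.23% of all genes, and 8 members had an unadjusted p under 0.05, beside 23.6%. The heat map gives every member in every liver on both scales.

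**Figure D1:**
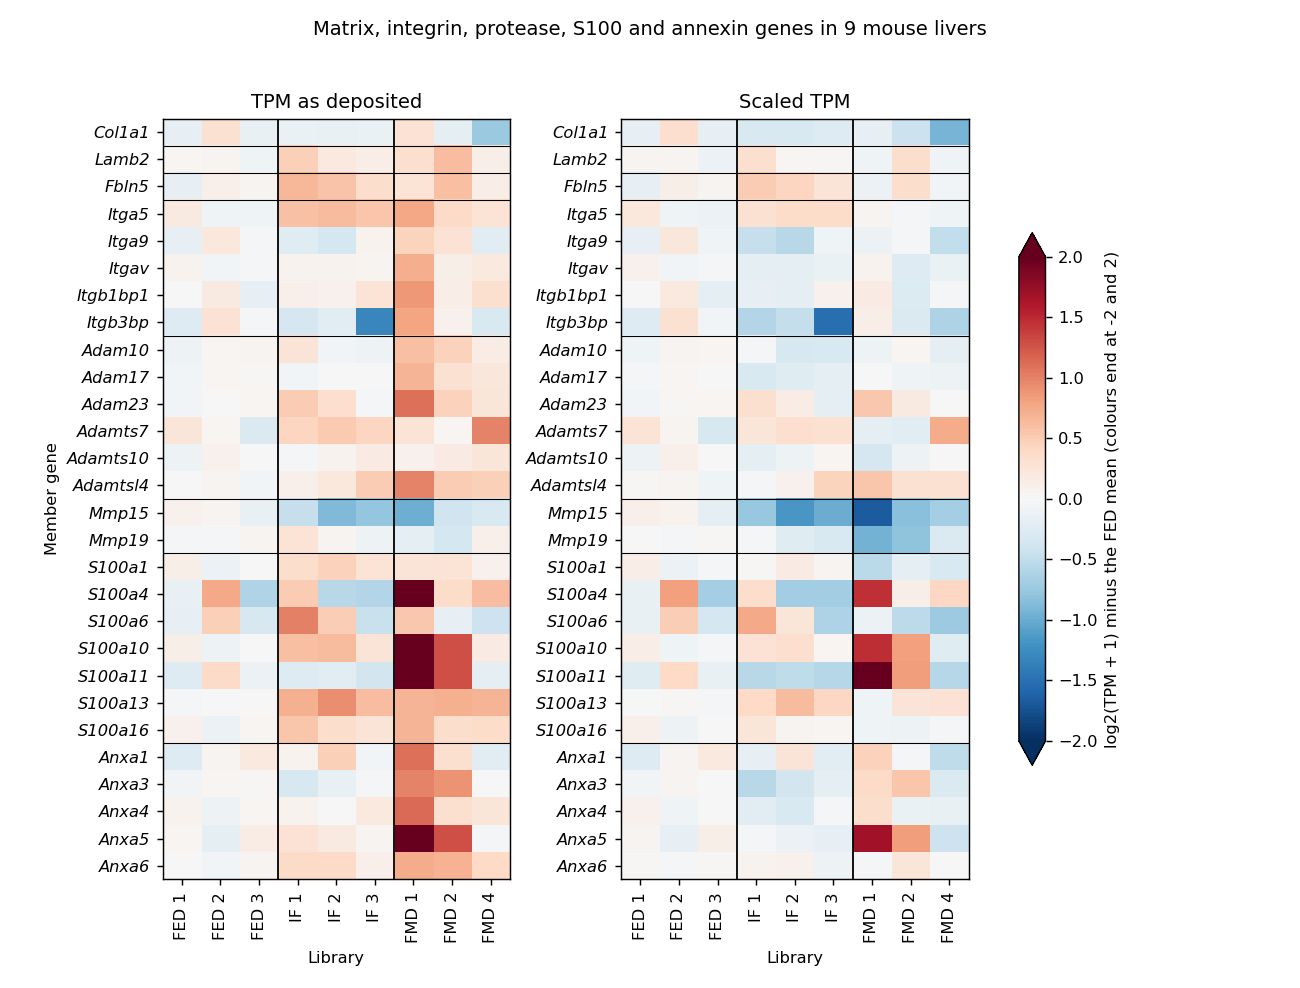
Each row is a member gene and each column a liver, and the colour is log2(TPM + 1) minus the FED mean, for TPM as deposited on the left and scaled TPM on the right. S100a10, S100a11, S100a4 and Anxa5 are darkest in FMD replicate 1, and Mmp15 is blue in all IF and FMD libraries on both scales.

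The structural matrix members were low in all livers, and none of them was called with all libraries in the main fit or after scaling. Col1a1, the alpha 1 chain of type I collagen, was at 0.90, 1.63 and 0.93 TPM in FED, 0.95, 0.93 and 0.94 TPM in IF, and 1.60, 0.86 and 0.27 TPM in FMD livers. Its groups overlapped, and its FMD vs FED log2 fold change of -0.22 ± 0.23 (SE) became 0.05 without FMD replicate 4. The scaled value was -0.66 without FMD replicate 1, which met the limits for a call. Col1a1 passed the TPM limit through FED, so that call is not a test. Lamb2, the beta 2 chain of laminin in basement membranes, was at 0.98, 0.99 and 0.81 TPM in FED, 1.69, 1.21 and 1.11 TPM in IF and 1.41, 1.95 and 1.09 TPM in FMD livers. All 6 diet libraries were above the FED libraries, by 0.27 ± 0.15 (limma adjusted p = 0.212) in IF and 0.35 ± 0.15 (adjusted p = 0.0615) in FMD. After scaling the values were 0.13 and 0.06, and the libraries of both diets overlapped FED.

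Fbln5, fibulin 5, takes part in the assembly of elastic fibres. It was at 0.65, 0.97 and 0.92 TPM in FED livers, at 1.93, 1.74 and 1.35 TPM in IF livers and at 1.23, 1.80 and 1.02 TPM in FMD livers. Every diet library was above every FED library. The IF vs FED log2 fold change was 0.53 ± 0.15 (SE, limma adjusted p = 0.0300), which is under the fold limit, and 0.40 after scaling (adjusted p = 0.103). With a pseudocount of 0.1 in place of 1 it was 0.91 and called (limma adjusted p = 0.0264). The FMD vs FED value was 0.34 (limma adjusted p = 0.0717), or 0.06 scaled, where the libraries overlapped FED.

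Of the 31 matching genes under 1 TPM, S100a3 and S100a7a were at 0 in every library and the other 29 were fitted without a filter on level. In that limma fit 1 of them was called, lower, in each diet against FED, and 0 in FMD vs IF. Over the 5560 genes of that fit the shares called were 9.62% in IF vs FED, 31.2% in FMD vs FED and 2.95% in FMD vs IF. The scale understates the change of such low genes. The called gene was Lama3, the alpha 3 chain of epithelial laminins. It was at 1.21, 2.02 and 1.09 TPM in FED, 0.53, 0.51 and 0.58 TPM in IF and 0.26, 0.37 and 0.25 TPM in FMD livers. The groups did not overlap, and the log2 fold changes were -0.64 for IF (limma adjusted p = 0.00895) and -0.90 for FMD (adjusted p = 0.000866), each against FED. Lama3, Mmp12, Timp1 and Itga2 were chosen for description after their values were seen. Mmp12, the macrophage metalloelastase, was at 6.08 TPM in FMD replicate 1 and at 0.02 to 0.36 TPM in the other 8 livers, and Timp1, a metalloproteinase inhibitor, was at 2.68 TPM in the same liver and at 0.09 to 0.48 TPM elsewhere. Itga2, a collagen-binding integrin chain, was at 0.47, 0.41 and 0.15 TPM in FMD, at 0.04 to 0.05 TPM in IF and at 0.00 to 0.01 TPM in FED livers.

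Among the integrin symbols, Itga5 (NCBI gene 16402), the alpha chain of the main fibronectin receptor, had the highest mean level. It was at 8.34, 6.70 and 6.71 TPM in FED, 11.30, 11.78 and 11.12 TPM in IF and 13.07, 9.66 and 8.97 TPM in FMD livers. Every diet library was above every FED library, and the IF libraries lay close together. It rose in IF vs FED by 0.59 ± 0.15 (SE, limma adjusted p = 0.0158) and did not reach the fold limit in FMD vs FED, at 0.48 (adjusted p = 0.0156). After scaling the IF value was 0.34 (adjusted p = 0.0520) and the FMD value turned to -0.02. The IF call was lost without FED replicate 2 (0.55, limma adjusted p = 0.0640), FED replicate 3 (0.55, adjusted p = 0.0642), IF replicate 1 (0.60, adjusted p = 0.0562) or IF replicate 2 (0.57, adjusted p = 0.0671).

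Itgav, the alpha chain shared by several receptors for vitronectin and fibronectin, was at 3.65 to 4.10 TPM in FED livers, 4.02 to 4.08 TPM in IF and 4.27 to 7.03 TPM in FMD livers, with an FMD vs FED value of 0.35 (limma adjusted p = 0.0641) that became -0.10 after scaling. Itga9, a receptor chain for tenascin and other ligands, ran from 1.44 to 3.24 TPM with overlapping groups. Itgb1bp1, the protein ICAP-1 that binds the beta 1 integrin tail, was at 6.12, 7.14 and 5.39 TPM in FED, 6.72, 6.62 and 7.67 TPM in IF and 12.15, 6.91 and 8.0 TPM in FMD livers. FMD replicate 1 stood above the rest, FMD replicate 2 lay inside the FED range, and the FMD vs FED value was 0.45 (limma adjusted p = 0.0482), or -0.04 scaled. Itgb3bp, known also as a centromere protein, was at 0.88 TPM in IF replicate 3 and at 2.69 to 7.09 TPM elsewhere, and was not called.

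The 2 metalloproteinase members lay at 6.01 to 30.97 TPM and had the lowest scaled fold changes of all members in FMD vs FED. Mmp15 (NCBI gene 17388), a membrane-anchored metalloproteinase, was at 13.69, 13.45 and 11.56 TPM in FED livers, at 9.11, 6.50 and 7.09 TPM in IF livers and at 6.01, 9.50 and 10.25 TPM in FMD livers. Every IF and FMD library was below every FED library. It fell in IF vs FED by 0.71 ± 0.19 on the log2 scale (SE, limma adjusted p = 0.0204), and the FMD vs FED value of -0.56 ± 0.19 (adjusted p = 0.0217) was just short of the fold limit. After scaling it was lower in both, at -0.97 (limma adjusted p = 0.0215) in IF and -1.06 (adjusted p = 0.0105) in FMD. The call in IF vs FED was lost without FED replicate 1 (-0.66, limma adjusted p = 0.0774), FED replicate 2 (-0.68, adjusted p = 0.0700), IF replicate 2 (-0.62, adjusted p = 0.0917) or IF replicate 3 (-0.67, adjusted p = 0.0642), with the same direction each time. The scaled call in IF vs FED was lost without each of the same 4 libraries.

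Mmp19, a secreted metalloproteinase that acts on basement membrane proteins, was at 25.10, 24.88 and 26.30 TPM in FED, 30.97, 26.54 and 23.68 TPM in IF and 22.19, 19.69 and 27.21 TPM in FMD livers. The groups overlapped on this scale, and the FMD vs FED value was -0.15 (limma adjusted p = 0.355). Scaled values were 30.8 ± 0.416 in FED and 19.2 ± 4.99 in FMD (SD, n = 3) without overlap, a log2 fold change of -0.68 (limma adjusted p = 0.0127). It was -0.55 without FMD replicate 1, short of the fold limit. The IF vs FED value changed sign with scaling, from 0.08 to -0.19.

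**Figure D2:**
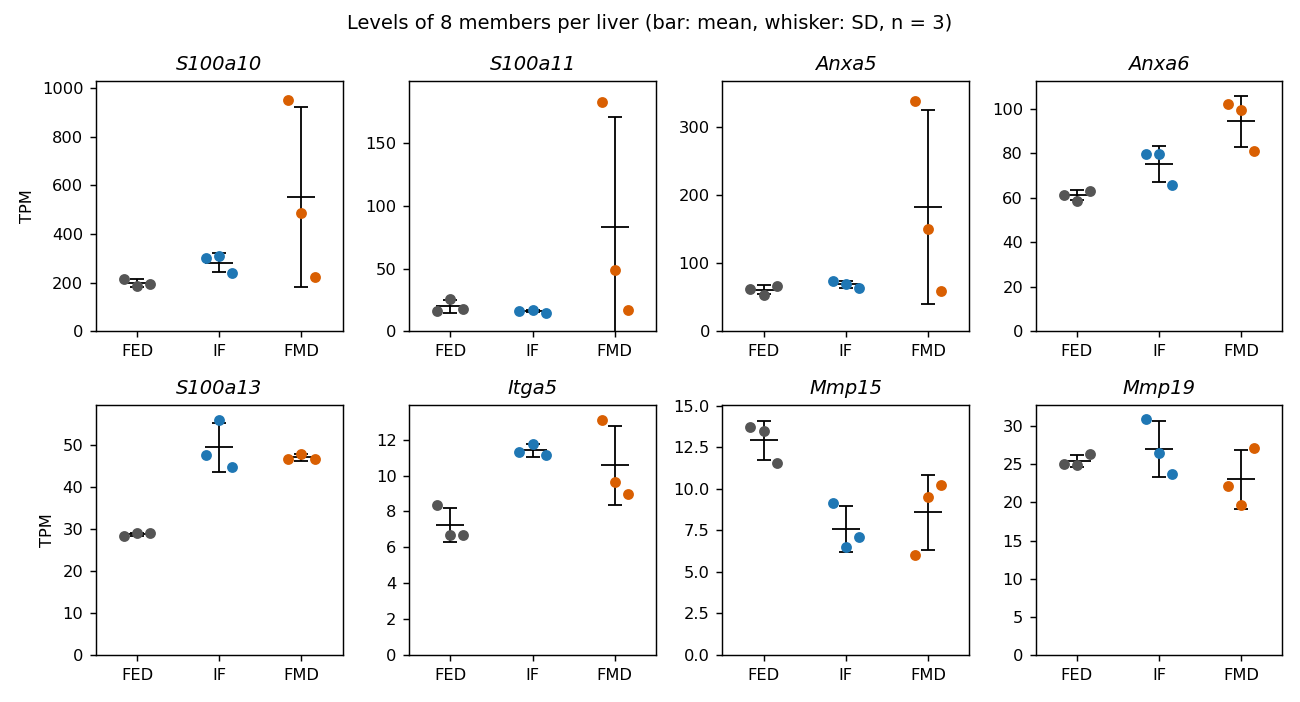
Each panel gives TPM in FED, IF and FMD livers for 1 gene, with a point per liver, a bar at the mean and whiskers of 1 SD (n = 3), and the whisker of S100a11 in FMD is cut at 0. S100a10, S100a11 and Anxa5 are spread widely in FMD, S100a13 lies above FED in all 6 diet livers, and Mmp15 lies below FED in all 6.

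Among ADAM and ADAMTS symbols, the genes of both main sheddases were expressed and did not pass the fold limit. Adam10, which cleaves Notch receptors and cadherins, was at 6.74 ± 0.458 TPM in FED, 6.95 ± 1.1 TPM in IF and 9.32 ± 1.57 TPM in FMD (SD, n = 3). Adam17, which releases tumour necrosis factor, was at 4.16 ± 0.163, 4.10 ± 0.1 and 5.87 ± 1.2 TPM. For both genes the FMD libraries lay above the FED libraries, with a log2 fold change of 0.40 (limma adjusted p = 0.0314 for Adam10 and 0.0218 for Adam17), and the values became -0.09 and -0.06 after scaling.

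Adam23, an ADAM protein without protease activity, was at 1.19, 1.31 and 1.36 TPM in FED, 2.26, 1.88 and 1.22 TPM in IF and 3.89, 2.15 and 1.70 TPM in FMD livers. All FMD libraries were above the FED libraries while IF overlapped them, and it rose in FMD vs FED by 0.60 ± 0.21 (SE, limma adjusted p = 0.0294), or 0.24 scaled (adjusted p = 0.32). Without FMD replicate 1 it was 0.35 (limma adjusted p = 0.0811), and the call was also lost without any 1 FED library (0.57 to 0.62, lowest adjusted p = 0.0590). Adamtsl4, a glycoprotein of fibrillin microfibrils that lacks the protease domain, was at 0.59, 0.63 and 0.51 TPM in FED, 0.69, 0.82 and 1.25 TPM in IF and 2.13, 1.25 and 1.20 TPM in FMD livers. The FMD libraries were 3.69, 2.17 and 2.08 times the FED mean, for a log2 fold change of 0.66 ± 0.17 (SE), or 0.39 scaled. It passed the TPM limit through these libraries, so no test is given. The proteases Adamts7 and Adamts10 were at 0.84 to 3.45 and 1.05 to 1.60 TPM and were not called.

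The S100 genes spanned the widest range of levels, from 0.25 to 950.13 TPM. S100a10 (NCBI gene 20194), the p11 partner of annexin A2, had the highest mean of all members, 343.9 TPM over the 9 livers. It was at 213.54, 184.81 and 195.92 TPM in FED, 299.59, 307.06 and 237.31 TPM in IF and 950.13, 484.57 and 222.07 TPM in FMD livers. Every diet library was above the FED libraries, but FMD replicate 4 lay below the IF libraries. S100a10 rose in FMD vs FED by 1.24 ± 0.39 (SE, limma adjusted p = 0.0180), and was at 0.50 ± 0.39 in IF vs FED (adjusted p = 0.360). Both errors come from 1 spread shared by the 3 groups, whose SDs were 14.5 TPM in FED, 38.3 TPM in IF and 369 TPM in FMD. The IF vs FED error thus holds mainly the FMD spread. Without FMD replicate 1 the FMD value was 0.73 (limma adjusted p = 0.0346), still called, and without FED replicate 2 it was 1.19 (adjusted p = 0.05001), not called. After scaling it was 0.69 (adjusted p = 0.168), and FMD replicate 4 lay below the FED libraries at 203.3 scaled TPM.

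S100a11 (NCBI gene 20195), a partner of annexin A1, was chosen for description after its values were seen. It was at 16.09, 25.65 and 17.86 TPM in FED, 16.10, 16.68 and 14.91 TPM in IF and 182.51, 49.18 and 17.04 TPM in FMD livers. The FMD libraries were 9.19, 2.47 and 0.858 times the FED mean, so FMD replicate 4 was within the FED range and the others far above it. With this spread the FMD vs FED value of 1.42 ± 0.61 was not called (SE, limma adjusted p = 0.0593), nor was the FMD vs IF value of 1.70 (adjusted p = 0.0912). After scaling the FMD vs FED value was 0.89 (limma adjusted p = 0.287). The scaled FMD libraries were 5.31, 1.79 and 0.648 times the FED mean, and FMD replicate 4 lay below the FED libraries at 15.6 scaled TPM.

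S100a13 (NCBI gene 20196), which takes part in the release of growth factors that lack a signal peptide, was the member with the smallest adjusted p. It was at 28.35, 29.02 and 29.04 TPM in FED, 47.70, 56.00 and 44.78 TPM in IF and 46.66, 48.04 and 46.73 TPM in FMD livers, so the groups on either diet lay together, well above FED. It rose by 0.75 ± 0.11 in IF vs FED (SE, limma adjusted p = 0.00134) and by 0.69 ± 0.11 in FMD vs FED (adjusted p = 0.000793). After scaling the values were 0.48 in IF (limma adjusted p = 0.0241), under the fold limit, and 0.15 in FMD (adjusted p = 0.388), where the libraries overlapped FED. S100a13 was called without scaling whichever library was left out, in both comparisons.

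S100a1, abundant in muscle and here the second most abundant member, was at 228.90, 194.48 and 212.73 TPM in FED, 269.17, 292.33 and 255.59 TPM in IF and 252.55, 256.77 and 225.36 TPM in FMD livers. IF lay above FED without overlap, by 0.36 ± 0.11 (SE, limma adjusted p = 0.0430), under the fold limit. The FMD vs FED value changed sign with scaling, from 0.21 to -0.34. S100a16 was at 23.5 ± 1.74 TPM in FED, 31.1 ± 3.45 TPM in IF and 33.0 ± 4.57 TPM in FMD (SD, n = 3), with FMD vs FED at 0.46 (limma adjusted p = 0.0113), or -0.07 scaled. S100a4, known from fibroblasts and immune cells, was at 6.79 TPM in FMD replicate 1 and 0.25 to 2.20 TPM elsewhere, and S100a6 was at 2.44 to 8.39 TPM with overlapping groups.

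Annexins bind membrane phospholipids when calcium is present. Anxa5 (NCBI gene 11747), the annexin used to detect exposed phosphatidylserine, was at 62.19, 53.53 and 67.13 TPM in FED, 74.17, 68.92 and 63.28 TPM in IF and 338.92, 150.32 and 59.77 TPM in FMD livers. FMD replicates 1 and 2 were 5.56 and 2.47 times the FED mean, and replicate 4 was 0.981 times it. Anxa5 rose in FMD vs FED by 1.24 ± 0.46 (SE, limma adjusted p = 0.0325), or 0.70 after scaling (adjusted p = 0.238). Without FMD replicate 1 it was 0.64 (limma adjusted p = 0.0822) and without FMD replicate 4 it was 1.88 (adjusted p = 0.000449). The call was also lost without FMD replicate 2 (1.22, limma adjusted p = 0.0724), without any 1 FED library (1.16 to 1.32, lowest adjusted p = 0.0568) and in the pairwise fit (adjusted p = 0.0628).

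Anxa6, an annexin of endosomes and the plasma membrane, was at 61.32, 58.65 and 63.06 TPM in FED, 79.71, 79.60 and 65.83 TPM in IF and 102.13, 99.41 and 81.04 TPM in FMD livers. These 3 groups did not overlap and FMD was the highest. It rose in FMD vs FED by 0.61 ± 0.13 (SE, limma adjusted p = 0.00285), and its scaled value was 0.07 (adjusted p = 0.694). It fell short of the fold limit without FMD replicate 1 (0.55), FMD replicate 2 (0.57) or FED replicate 2 (0.58). Anxa3 was at 2.08, 2.31 and 2.25 TPM in FED, 1.56, 1.90 and 2.12 TPM in IF and 5.42, 5.0 and 2.20 TPM in FMD livers, so replicates 1 and 2 lay above all FED libraries and replicate 4 among them. It rose by 0.63 ± 0.23 (SE, limma adjusted p = 0.0305), or 0.21 scaled (adjusted p = 0.467), and the value was 0.45 without FMD replicate 1 (adjusted p = 0.0986) and 0.95 without FMD replicate 4 (adjusted p = 0.000318). The Anxa3 call was lost too without FMD replicate 2 (0.50, limma adjusted p = 0.102), without any 1 FED library (0.60 to 0.65, lowest adjusted p = 0.0620) and in the pairwise fit (adjusted p = 0.0578). Anxa4 was at 60.34 TPM in FMD replicate 1 and 25.20 to 33.85 TPM in the other livers, and Anxa1, an anti-inflammatory annexin, at 6.62 TPM in the same liver and 1.98 to 3.95 TPM elsewhere. Neither was called.

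**Figure D3:**
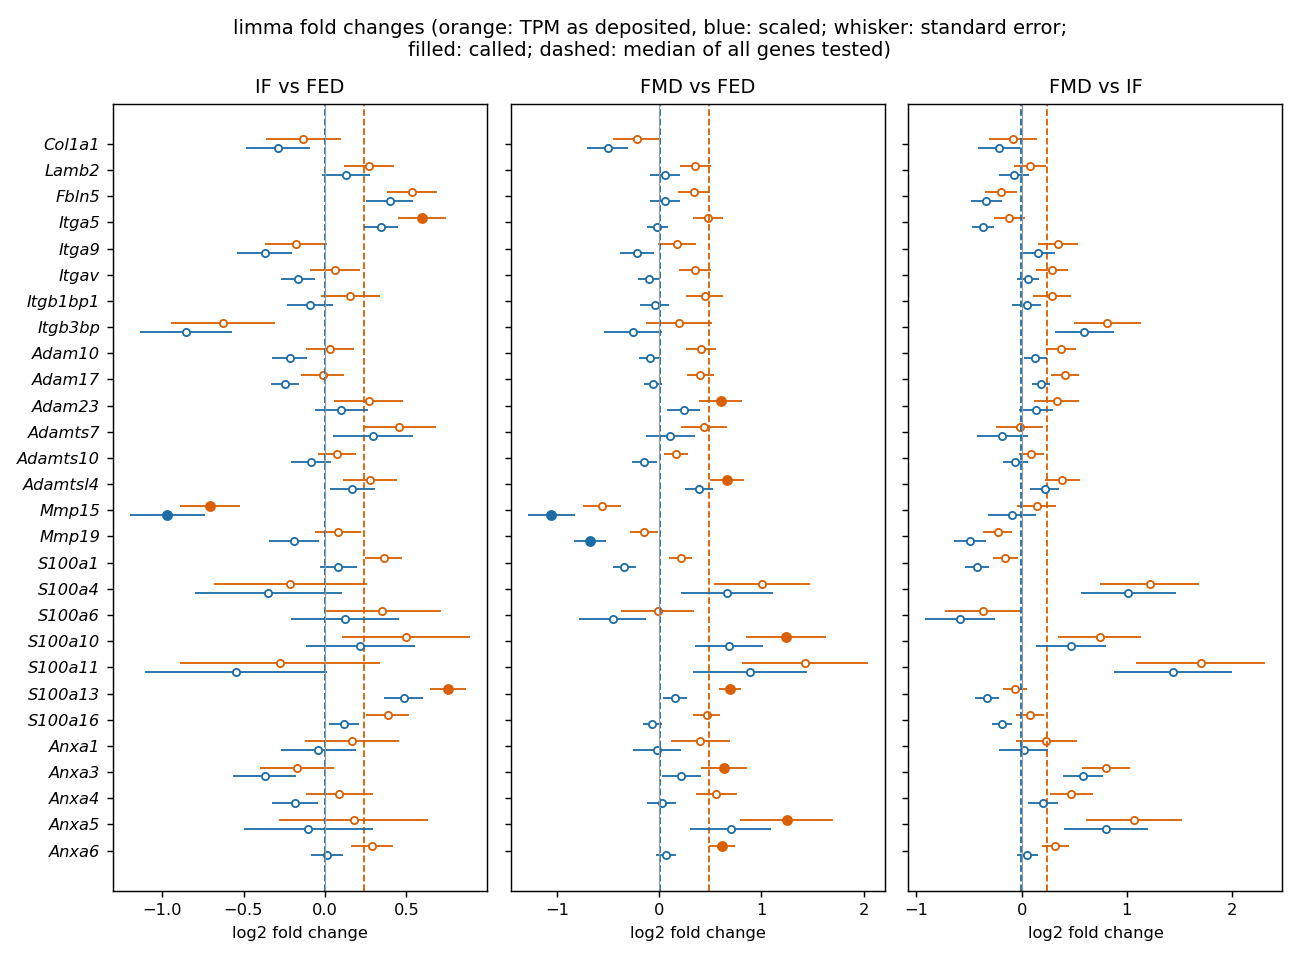
Each line is a member, each panel a comparison, and the points are limma log2 fold changes with whiskers of 1 standard error, orange for TPM as deposited and blue for scaled TPM. Filled points are called and dashed lines are the medians of all genes tested. The 7 filled orange points in FMD vs FED have hollow blue partners, and the filled blue points are Mmp15 and Mmp19.

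The FMD livers differed among themselves more than the livers of the other groups. The members' median SD of log2(TPM + 1) was 0.111 in FED, 0.160 in IF and 0.358 in FMD, beside 0.102, 0.108 and 0.250 over all genes tested. The order replicate 1 above replicate 2 above replicate 4 held for 16 members (57.1%) and 43.2% of all genes, and after scaling for 11 members (39.3%) and 20.2% of all genes. FMD replicate 1 was the highest of the 9 livers for 18 members, beside 65.8% of all genes, and after scaling for 8 members (28.6%), beside 21.2%. The number of members called in FMD vs FED depended on single libraries. It was 2 without FMD replicate 1 (S100a10 and S100a13), 3 without FED replicate 2 (Adamtsl4, S100a13 and S100a4), 4 without FED replicate 1 (Adamtsl4, Anxa6, S100a10 and S100a13), 9 without FMD replicate 2 (Adam23, Adamts7, Adamtsl4, Anxa4, Itgb1bp1, S100a10, S100a13, S100a4 and, lower, Mmp15), and 11 without FMD replicate 4, where Anxa1, Anxa4, S100a11 and, lower, Mmp15 joined the 7. Over all genes tested the shares called were 25.0%, 35.8%, 34.1%, 42.3% and 46.6% in that order, beside 37.1% with all libraries. Adamtsl4 and S100a4 passed the TPM limit through FMD, so their calls among these numbers, also within the 7, are not a test. Without FMD replicate 4, 6 members were called in FMD vs IF (Anxa3, Anxa4, Anxa5, Itgb3bp, S100a10 and S100a11), or 5 after scaling (Anxa3, Anxa5, S100a10 and S100a11 higher and Mmp19 lower), and the shares of all genes rose with them, to 17.6% and 7.4%. In IF vs FED 1 member, S100a13, was called without FED replicate 2 or without IF replicate 2, beside 10.2% and 8.9% of all genes.

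**Figure D4:**
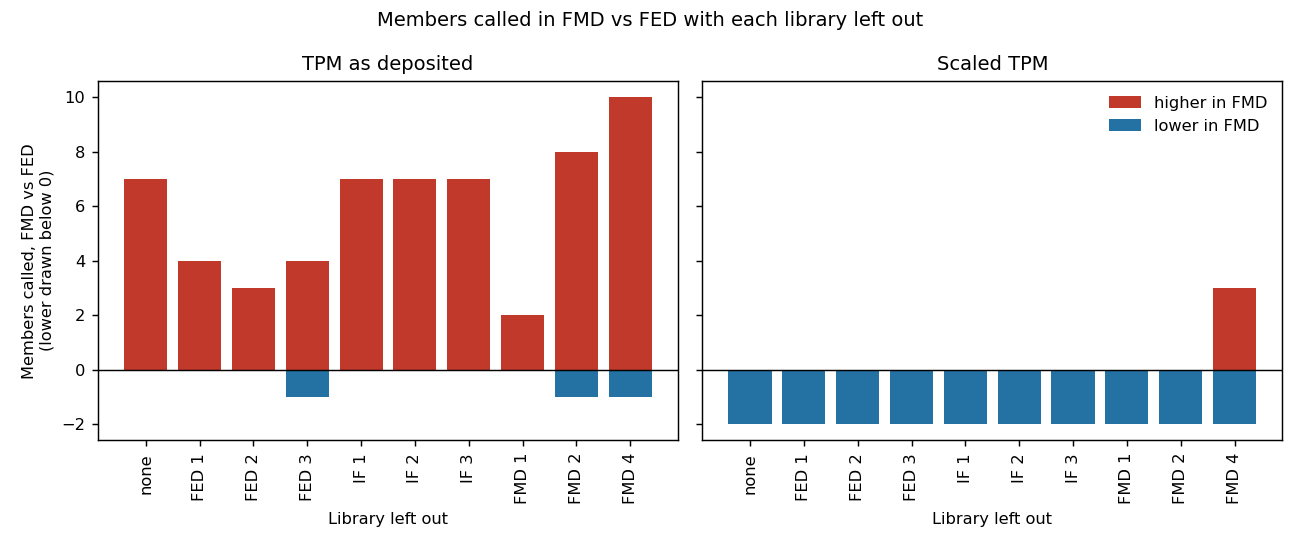
Bars count the members called in FMD vs FED by limma when the library on the horizontal axis is left out, with lower calls drawn below 0, for TPM as deposited on the left and scaled TPM on the right. The unscaled count runs from 2 without FMD replicate 1 to 11 without FMD replicate 4. It includes Adamtsl4 and S100a4 where called, which passed the TPM limit through FMD. The scaled count is 2, beside 8.72% to 11.1% of all genes, except without FMD replicate 4, where it is 5, beside 13.9%. The 2 scaled calls are Mmp15 and Mmp19, or Col1a1 and Mmp15 without FMD replicate 1.

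Libraries of IF and FED did not overlap for 10 members with higher and 1 with lower IF values, beside 53.8% and 6.77% of all genes tested. In FMD vs FED this held for 13 members higher and 1 lower, beside 68.0% and 2.62% of all genes. In FMD vs IF it held for 6 members higher and 0 lower, beside 33.6% and 3.04%. After scaling there were 3 higher and 8 lower in IF vs FED (23.2% and 23.0% of all genes) and 1 higher and 3 lower in FMD vs FED (18.5% and 18.2%). In FMD vs IF the direction turned with scaling, to 1 higher and 4 lower (12.7% and 13.6%).

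Markers of other cells were read in the same livers, as unscaled TPM. Few markers were listed: 5 of 18 for stellate cells and fibroblasts, 1 of 16 for Kupffer cells and macrophages, 1 of 19 for endothelium, 1 of 10 for cholangiocytes, 3 of 12 for neutrophils and 1 of 15 for hepatocytes. Of the lymphocyte, platelet and red cell, and mesothelial lists 0 genes were listed. Cd68, a lysosomal protein of macrophages, was at 64.02, 12.16 and 5.75 TPM in FMD replicates 1, 2 and 4. It was at 6.35 to 10.35 TPM in FED and 3.14 to 5.99 TPM in IF livers. The FMD order was that of S100a10, S100a11 and Anxa5, and it held for 43.2% of all genes tested (20.2% after scaling). Cd68 was not called in FMD vs FED, at 0.96 (limma adjusted p = 0.187), or 0.45 scaled (adjusted p = 0.623). The summed stellate and fibroblast markers (Dcn, Ecm1, Vim, Hgf and Pdgfrb) were at 134 to 164 TPM in FED livers, 224 to 275 TPM in IF and 184 to 359 TPM in FMD livers. Dcn and Ecm1 made up most of the sum, with FED means of 77.5 and 60.1 TPM. Pdgfrb had means of 1.67, 1.96 and 1.63 TPM in FED, IF and FMD. Of the 5 genes, 2 were called higher in IF and 3 in FMD vs FED, beside 10.3% and 35.5% of all genes. After scaling 0 were called in any comparison, beside 7.14%, 11.1% and 2.23% of all genes. The endothelial gene Oit3 was at 6.58 to 9.28 TPM in FED livers, 6.35 to 8.02 TPM in IF and 8.85 to 17.17 TPM in FMD. For the neutrophil genes the sum ran from 2.67 to 22.3 TPM among FED livers. Among IF livers it ran from 4.57 to 12.2 TPM, and among FMD livers from 3.78 to 43.1 TPM. Camp was at 0 throughout, and most of each sum was Lcn2, the only gene of this list that was tested. Lcn2 alone gave 20.74, 2.33 and 12.59 TPM for FED, and 43.03, 12.61 and 3.78 TPM for FMD replicates 1, 2 and 4. For IF it gave 6.91, 12.05 and 4.48 TPM, and it was called in no comparison. The sums thus follow 1 gene, and the neutrophil content of the livers was not tested. The cholangiocyte gene Krt19 was at 0.76 to 4.07 TPM in all. The hepatocyte marker Ass1 was at 2335 to 5153 TPM in all livers, with overlapping groups. The part of cell makeup in the members' values was not tested.

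Genes that act on collagen, adhesion and matrix turnover were taken from 5 lists outside the rule. Of their 66 tested genes 15 (22.7%) were called in IF vs FED, 31 (47.0%) in FMD vs FED and 6 (9.09%) in FMD vs IF, beside 11.9%, 37.1% and 5.14% of all genes. After scaling the shares were 9.09%, 15.2% and 3.03%, beside 7.14%, 11.1% and 2.23%. Single libraries moved these numbers, to 8 without IF replicate 2 and 9 without FED replicate 1 in IF vs FED, and to 15 without FMD replicate 4, 3 without FMD replicate 1, 1 to 3 without a FED library and 0 without any IF library in FMD vs IF. Of 14 tested genes for collagen modification and export, 3 were called higher and 1 lower in IF vs FED, and 9 higher and 1 lower in FMD vs FED. Their median log2 fold changes were 0.25 and 0.77, beside medians of 0.24 and 0.48 over all genes, against which the medians of the other lists are also to be read. After scaling 0 were higher and 3 lower in IF, and 2 were higher and 2 lower in FMD, while in FMD vs IF the 4 called higher became 1. Sec23a, a coat protein of vesicles that leave the endoplasmic reticulum, was at 21.9 ± 0.427 TPM in FED, 40.7 ± 6.26 TPM in IF and 60.4 ± 16.8 TPM in FMD (SD, n = 3), with log2 fold changes of 0.85 (limma adjusted p = 0.0115) and 1.38 (adjusted p = 0.000428). Mia3, the receptor that loads procollagen into such vesicles, rose by 0.80 in IF and 1.16 in FMD (limma adjusted p = 0.00753 and 0.000456), and was called in neither after scaling (0.54 and 0.63). Scaled, Sec23a was called in FMD (0.85) and not in IF (0.58). Ppib, a prolyl isomerase that helps fold procollagen, was at 388 ± 46 TPM in FED, 203 ± 8.5 TPM in IF and 271 ± 77.3 TPM in FMD (SD, n = 3), and fell by 0.92 in IF vs FED (limma adjusted p = 0.00619). P4hb, the beta subunit of prolyl 4-hydroxylase, had a higher level in FMD vs IF, by 0.77 (limma adjusted p = 0.0193), or 0.49 scaled (adjusted p = 0.0375), under the fold limit. It serves other secreted proteins as well as collagen.

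Of 14 tested matrix glycoproteins and proteoglycans, 5 were called higher in IF and 3 in FMD livers than in FED, with 0 lower in both, and 1 was lower in FMD vs IF. The medians were 0.41 in IF and 0.20 in FMD vs FED. After scaling the numbers were 2 higher in IF, and 1 higher and 1 lower in FMD. Gpc1, a heparan sulfate proteoglycan held at the membrane, was at 3.66, 4.44 and 4.64 TPM in FED, 16.78, 14.06 and 13.20 TPM in IF and 20.19, 23.85 and 19.83 TPM in FMD livers, without overlap between any groups. It rose by 1.58 ± 0.13 in IF and 2.09 ± 0.13 in FMD vs FED (SE, limma adjusted p = 0.000117 and 7.53e-06). Sdc1, the syndecan of hepatocytes, was at 106 ± 17.3 TPM in FED, 214 ± 25.3 TPM in IF and 133 ± 17.5 TPM in FMD (SD, n = 3), higher in IF than in FED by 1.02 (limma adjusted p = 0.00175) and lower in FMD than in IF by -0.68 (adjusted p = 0.0336).

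Of 20 tested integrin adhesion and signalling proteins, 3 were called higher in IF and 8 in FMD livers than in FED, with 0 lower, and after scaling 1 was higher in IF, and 1 was higher and 3 were lower in FMD. The medians were 0.31 and 0.50 without scaling. The 3 genes called in IF were Tns1, Lims2 and Actn4, which encode tensin 1, an adaptor of the integrin-linked kinase complex and an actin crosslinker. Tns1 rose by 1.12 in IF and 1.49 in FMD vs FED (limma adjusted p = 0.00506 and 0.000450), and Lims2 by 0.79 and 1.10 (adjusted p = 0.00258 and 0.000188). Scaled, Tns1 was called in both (0.86 and 0.97) and Lims2 in neither (0.52 and 0.56). Of 9 tested genes of other matrix-degrading systems, 3 were higher in IF and 4 in FMD vs FED, among them the hyaluronidases Hyal1 and Hyal2 in FMD (1.09 and 1.12, limma adjusted p = 0.00124 and 0.000354), and 0 were called after scaling. Their medians were 0.43 and 0.56. Of 9 tested genes of transforming growth factor beta signalling, 0 were called in IF and 6 were higher in FMD vs FED, with medians of 0.22 and 0.65, and 0 were called after scaling. Smad6, an inhibitory SMAD, was at 1.65 ± 0.185 TPM in FED and 3.52 ± 0.771 TPM in FMD (SD, n = 3), a log2 fold change of 0.76 (limma adjusted p = 0.00181).

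Several members lie close together. On the RefSeq annotation of GRCm38, 9 of the 28 members lie on chromosome 3: the 7 S100 genes, Anxa5 and Adamtsl4. S100a1 and S100a13 are neighbours read in opposite directions, and S100a11 and S100a10 are neighbours with 0 protein-coding genes between them. The values of the pairs are given above: without scaling, S100a13 was called in both diets and S100a1 in neither. S100a1 missed only the fold limit in IF vs FED (limma adjusted p = 0.0430), and after scaling neither gene was called in either diet. S100a10 and S100a11 both followed the order of the FMD livers, as did 43.2% of all genes tested. The promoter sequences of RefSeq (GRCm38.p6) held 21 of the 28 members. Shown are the 104 bases between the starts of S100a1 and S100a13, read towards higher coordinates (chr3:90514331-90514434, plus strand), and the 250 bases before the start of S100a11 (chr3:93520246-93520495, plus strand) and of Anxa5 (chr3:36475888-36476137, minus strand), which varied together in FMD, and of Mmp15 (chr8:95352046-95352295, plus strand), which was lower in both diets. Capitals mark matches to the motifs searched on both strands, TGANTCA (AP-1), CACGTG (E box), GGGCGG (GC box, CCGCCC on the other strand), CCAAT and TATAAA.
S100a1 and S100a13: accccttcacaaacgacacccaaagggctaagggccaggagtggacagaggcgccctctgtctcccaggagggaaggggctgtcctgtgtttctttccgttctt
S100a11: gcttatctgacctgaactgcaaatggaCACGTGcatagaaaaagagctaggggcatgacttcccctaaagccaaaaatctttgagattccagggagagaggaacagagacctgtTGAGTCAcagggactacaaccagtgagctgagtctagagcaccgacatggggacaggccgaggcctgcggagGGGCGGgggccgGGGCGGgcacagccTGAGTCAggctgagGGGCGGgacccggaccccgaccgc
Anxa5: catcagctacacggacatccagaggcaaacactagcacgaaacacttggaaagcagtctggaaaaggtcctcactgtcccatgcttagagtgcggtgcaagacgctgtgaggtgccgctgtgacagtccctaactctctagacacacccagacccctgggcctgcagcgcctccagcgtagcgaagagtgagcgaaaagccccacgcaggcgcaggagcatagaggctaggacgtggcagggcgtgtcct
Mmp15: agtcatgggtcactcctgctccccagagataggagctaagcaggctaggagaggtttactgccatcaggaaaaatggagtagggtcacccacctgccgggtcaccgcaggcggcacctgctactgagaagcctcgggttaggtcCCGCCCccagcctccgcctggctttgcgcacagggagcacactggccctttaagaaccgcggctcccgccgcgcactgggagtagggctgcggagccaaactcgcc

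The S100a11 sequence held 2 AP-1 matches, 136 and 38 bases before the start, 1 E box at 223 bases and 3 GC boxes at 64, 52 and 24 bases. The Mmp15 sequence held 1 GC box, 106 bases before the start, and the Anxa5 and S100a1 to S100a13 sequences held none of the 5 motifs. Of 32851 promoters of the same length, 6.75% held AP-1, 6.02% the E box, 32.7% the GC box, 33.8% CCAAT and 12.4% TATAAA. Among the 21 members, AP-1 was matched in S100a11 and S100a16, the E box in Adam10 and S100a11, the GC box in 8, CCAAT in 3 and TATAAA in Anxa1 and S100a4. A match describes the letters and not a binding site.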

How the data were processed

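Liver RNA-seq values of 9 mice were used, grouped by their labels into FED, IF and FMD (replicates 1, 2 and 3, in FMD 1, 2 and 4). The unit is TPM, computed and deposited by the authors, whose processing notes name mm39 and DESeq2. The aligner, counter and annotation are not given in the sources used here, nor is how reads shared by similar genes were assigned. The table gives 5608 genes and 2 decimals, part of each library, so no counting intervals are given.

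All 9 libraries were fitted with limma 3.58.1 in R 4.3.3 on log2(TPM + 1), with a trend, for 4665 genes with a mean of at least 1 TPM. Thresholds were adjusted p under 0.05 and absolute log2 fold change over 0.585. Members and gene lists were chosen with earlier results of these data known, and no list was tested as a set. Members were named if called, most abundant or of smallest adjusted p in their role, or at the TPM limit. From each pathway list up to 3 genes of smallest adjusted p per comparison were eligible. Alternatives covered the pseudocount (0.1), no filter or a mean of at least 5 TPM, scaling, pairwise fits, the trend, a replicate block, the fold limit and each library left out. The fitting was tested on simulated data. Scripts ran in python 3.11.15 (pandas 2.3.3, numpy 2.4.6), with plots from matplotlib 3.10.9. Replicates are separate mice, and p-values cover the spread between them, taken per gene as 1 value for all 3 groups. The members' median SD of log2(TPM + 1) was 0.111 in FED, 0.160 in IF and 0.358 in FMD. For a member that varied most in FMD, the shared value understates the error of FMD vs FED. It overstates that of IF vs FED. The promoter table is of GRCm38.p6, another build than mm39, and was joined by NCBI gene identifier.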

Additional observations from a re-analysis of the deposited data

How the results depend on the processing

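With scaling, members called went from 3 to 1 in IF vs FED and from 7 to 2 in FMD vs FED, and pathway genes called from 15 to 6, from 31 to 10 and, in FMD vs IF, from 6 to 2. The members' medians went from 0.16, 0.42 and 0.29 to -0.088, -0.021 and 0.050. The scaling itself removes the shift of all genes. Without a fold limit 5 members were called for IF and 14 for FMD, each against FED, and 24 pathway genes for IF. The share of all genes at that setting is not given here. By unadjusted limma p under 0.05 alone, 25.0% of members passed for IF and 60.7% for FMD, beside 39.3% and 71.8% of all genes. With a mean of at least 5 TPM, which removes low members, 4 members were called for FMD against FED, beside 41.8% of the 3365 genes left. Pathway genes in FMD vs IF numbered 3 without a filter and 0 in pairwise fits, beside 2.95% and 0.514% of all genes.

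Leaving out 1 library gave 1 to 3 members in IF vs FED, 2 to 11 in FMD vs FED and 0 to 6 in FMD vs IF, and, scaled, 0 to 2, 2 to 5 and 0 to 5. Pathway genes ran from 8 to 16 in IF vs FED and from 0 to 15 in FMD vs IF, or 0 to 6 scaled, with 24 to 33 in FMD vs FED. The median in FMD vs IF ran from 0.12 to 0.40. Anxa6 in FMD vs FED turned to -0.019 after scaling without FMD replicate 2. The cause was not tested. The fit without a trend changed no call of a named member.

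Same-numbered libraries deviated together weakly (correlations of 0.00348 to 0.177 across genes), so the numbers are not read as pairs. With a replicate block 3, 10 and 5 members were called in the comparisons of IF with FED, FMD with FED and FMD with IF, beside 12.7%, 46.2% and 16.5% of all genes, and 14 pathway genes in the last. FMD replicate 4 is alone in its number, so the block leaves it without weight. Scaled with the block, members numbered 2, 5 and 5, beside 8.0%, 13.4% and 6.77% of all genes. Pathway genes then numbered 7 and 14 in IF and FMD vs FED, and the members' medians were -0.088, -0.020 and 0.064.

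Limits: the data list part of the genes, 3 mice per group limit precision, depth is unknown, 3 structural matrix genes lay near 1 TPM, and the shift of all listed genes between diets cannot be told apart from a difference in library composition.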
